A study of Mus musculus with 4 samples.

Results

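Heparan sulfate genes were compared between PSC-derived SG placodes and embryonic mouse submandibular glands (SMGs). The set holds 35 genes, chosen by symbol as the enzymes that build, sulfate and edit heparan sulfate chains and the syndecan and glypican core proteins that carry these chains. All 35 were found among the 24771 features with a value. Among the tested genes and on the log2 scale used here, the largest fold changes lay in the core proteins. The glypican Gpc3 and the syndecan Sdc1 were lower in the placodes, and the glypican Gpc2, whose level is uncertain, was higher. The sulfotransferases moved in both directions, with Hs6st1 higher and Hs6st2 and Hs3st1 lower.

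Heparan sulfate is a long sugar chain attached to a core protein. Synthesis starts in the secretory pathway with a short linker on a serine of the core protein, the EXT enzymes then extend the chain, and sulfotransferases and an epimerase modify it in patches. Outside the cell, endosulfatases remove 6-O-sulfate and heparanase cuts the chain. In the branching salivary epithelium, heparan sulfate binds FGF10 and takes part in its signalling through FGFR2b.

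The 129w2 line of mouse embryonic stem cells gave rise to both placode samples. Aggregates were seeded at 3000 cells per well and received 2% Matrigel from day 1, BMP4 (2 ng/ml) on day 3, RA (1 μM) together with bFGF (25 ng/ml) on day 4, and FGF10 (200 ng/ml) on day 6 and after. RNA was taken on day 10. The other 2 samples were SMGs of embryos at E12.5. Their labels repeat the stem cell culture protocol, which cannot describe embryonic glands, and call every sample untreated. No mutation or transgene is stated for either group, and mouse strain, dissection and the share of epithelium in the SMGs are not given in the sources used here. No source says that the 2 samples of a group came from separate cultures or litters, so p-values measure the spread between these samples, which may be technical. Sequencing dates or batches are not given.

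Expression was given as FPKM, the mapped fragments of a gene divided by its transcript length and by the mapped total of the sample, so levels of different genes can be set side by side. Values per sample are given in the order of replicates 1 and 2. Summed FPKM lay between 361963 and 384773 per sample, and 12636 to 12807 features reached an FPKM of 1. Read counts and depth are unknown, so no counting intervals are given. The 13193 features with a mean FPKM of at least 1 over the 4 samples were tested with limma on log2(FPKM + 1). A feature was called at a Benjamini-Hochberg adjusted p below 0.05, and fold changes are placodes minus SMGs on that log2 scale, which understates the change of genes with low values. An exact permutation test of 2 against 2 samples cannot go below p = 0.333 and was not used. In such tissues, fewer cells of a type and less RNA per cell cannot be told apart.

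The placodes went against their label in several markers of salivary epithelium. Both placode samples listed Krt5, Krt14 and Krt15 at 0, and 6 of 8 epithelial markers were lower there, with sums of 58.5 and 64.4 FPKM against 383 and 346 in the SMGs. Krt8 and Krt18 were not called. By contrast, the paper reported a rise of Krt5 and Krt14 in qPCR after FGF10. It also reported staining for Krt5, Krt19, Sox9 and E-cadherin protein on day 10. Sox9 and Krt19 are not among the markers listed here. All 8 neural markers were higher in the placodes (sums of 963 and 998 FPKM against 111 and 102). All 9 mesenchymal markers were lower (218 and 215 against 2130 and 2080), as were all 5 endothelial markers (9.75 and 9.20 against 101 and 107). All 5 tested of 7 blood markers were lower (1.70 and 2.27 against 2460 and 2390), and 3 of 4 tested of 5 skeletal muscle markers were lower (10.5 and 10.6 against 140 and 94.0). Transcripts of mitochondrial genes held 5.93% and 5.88% of summed FPKM in the placodes and 10.7% and 8.07% in the SMGs. The name SG placode is therefore used here only as the study's name for these samples. These markers differed between the same 2 groups as the heparan sulfate genes, and their part in the heparan sulfate results was not tested.

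Of the 35 heparan sulfate genes, 31 reached the minimum and were tested, and Extl1, Ndst3, Ndst4 and Gpc5 did not. Hs3st2 and Hs6st3 had an SMG mean below 1 FPKM. Both thus passed only through the placodes. Of the 31 tested, 24 were called (77.4%), against 76.2% of all tested features, so the number of calls was close to that of the whole transcriptome. In the placodes 10 were higher, where 35.7% of all features were, and 14 were lower, where 40.4% were. At least 2-fold differences were called for 11 of 31 (35.5%), against a background of 29.4%. Of these, 4 were higher (background 14.1%) and 7 lower (background 15.2%). The 4 include Hs3st2, for which the minimum itself favoured a rise. The samples of the 2 groups did not overlap for 30 of 31 genes, and 88.4% of all features showed the same. The median log2 fold change was -0.11 over the 31 genes and -0.05 over all features, and the median absolute log2 fold change was 0.68 and 0.55.

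The summed FPKM of all 35 genes was 1180 in each SMG sample and 744 and 740 in the placodes. Most of that gap was Gpc3 alone. Without it, the other 34 genes summed to 725 in each SMG sample and to 682 and 678 in the placodes. These sums include the rise of Gpc2, at 27.8 and 24.2 FPKM in the SMGs and 125 and 123 in the placodes. Their closeness therefore does not mean that the remaining genes were level. The order of levels also differed. By mean FPKM, the SMGs were led by Gpc3, Sulf2, Sdc1, Ext2 and Gpc6, and the placodes by Gpc2, Sulf2, Gpc3, Hs6st1 and Sdc3.

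**Figure D1:**
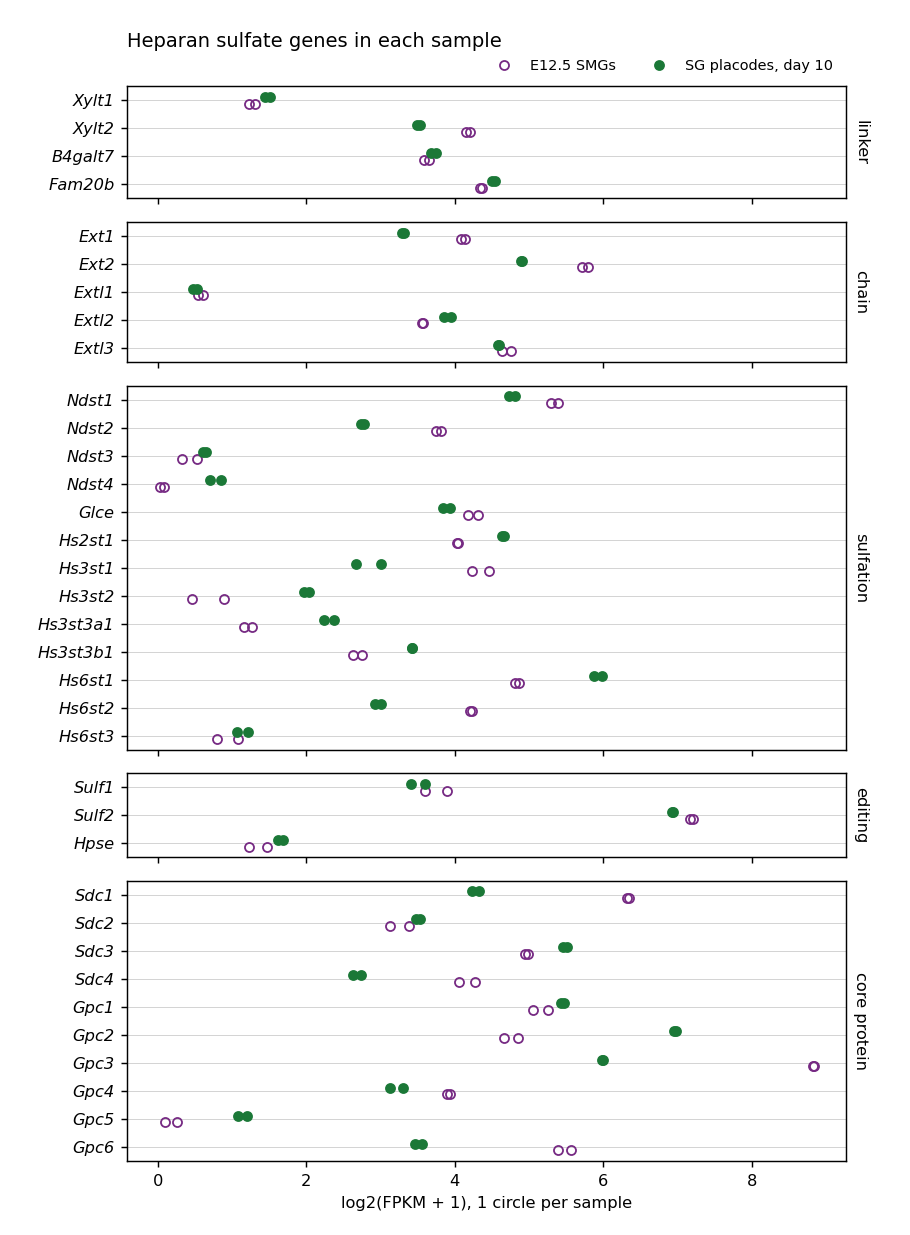
Level of each of the 35 heparan sulfate genes as log2(FPKM + 1), with 1 circle per sample (open, 2 SMG samples; filled, 2 placode samples) and the genes grouped by step. Gpc3 stands highest in the SMGs and Gpc2 in the placodes, and circles of a group lie close together for most genes.

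Among the core proteins, glypicans are held on the cell surface by a lipid anchor. Gpc3 (ENSMUSG00000055653, chrX:52272426-52613950, minus strand of GRCm38) is the glypican whose loss causes an overgrowth syndrome. It had 452 and 454 FPKM in the SMGs and 61.9 and 62.5 in the placodes. Both placode samples were far below both SMG samples, with a 7.29-fold ratio of means and a log2 fold change of -2.85 (SE 0.05, adjusted p = 1.94e-07). Among the tested genes of the set it had the largest absolute log2 fold change. Gpc2 (ENSMUSG00000029510, chr5:138273655-138280005, minus strand), a glypican known from developing neurons, had 27.8 and 24.2 FPKM in the SMGs and 125 and 123 in the placodes. It rose by 2.21 on the log2 scale (SE 0.07, adjusted p = 1.42e-06), a 4.76-fold ratio of means. The Gpc2 gene shares 55.6% of its exon bases in the annotation with Gm43720 on the same strand, which was listed at 2.15 and 3.46 FPKM in the SMGs and at 9.68 and 10.6 in the placodes. How fragments of the shared exons were divided is not given, so the level of Gpc2 is uncertain.

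Gpc6 (ENSMUSG00000058571, chr14:116925315-117976544, plus strand), a glypican needed for growth of the long bones, had 40.7 and 46.2 FPKM in the SMGs and 10.0 and 10.8 in the placodes. The groups were widely apart, and Gpc6 fell by 1.96 on the log2 scale (SE 0.08, adjusted p = 3.35e-06). Gpc4 had 13.9 and 14.3 FPKM in the SMGs and 8.84 and 7.75 in the placodes (log2 fold change -0.70, SE 0.08, adjusted p = 0.000367). Gpc1, which is known from the nervous system and other tissues, had 37.0 and 32.1 FPKM in the SMGs and 43.1 and 42 in the placodes, a log2 fold change of 0.30 with an adjusted p of 0.0113. That call was lost without placode replicate 1 (adjusted p = 0.116) or replicate 2 (adjusted p = 0.0914). Gpc5 was not tested. Its values were 0.192 and 0.0692 FPKM in the SMGs and 1.30 and 1.12 in the placodes.

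The make-up of the glypican family was therefore different. Gpc3 held 79.1% and 79.5% of the family's summed FPKM in the SMGs and 24.7% and 25.3% in the placodes. Gpc2 held 4.87% and 4.24% in the SMGs and 50% and 49.7% in the placodes. The ratio of Gpc3 to Gpc2 was 16.3 and 18.8 in the SMGs and 0.495 and 0.509 in the placodes, so the leading glypican was not the same in the 2 groups. The family sum was 572 and 571 FPKM in the SMGs and 250 and 247 in the placodes. Leaving out Gpc3, it was 120 and 117 in the SMGs and 188 and 184 in the placodes, which reversed the order of the groups. The reversal rested on Gpc2, whose level is uncertain, at 27.8 and 24.2 FPKM in the SMGs and 125 and 123 in the placodes. Of the other tested glypicans left in these sums, Gpc1 was higher in the placodes and Gpc4 and Gpc6 were lower.

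Syndecans cross the membrane and carry their chains outside the cell. Sdc1 (ENSMUSG00000020592, chr12:8771323-8793715, plus strand), the main syndecan of epithelia, had 79.0 and 80.4 FPKM in the SMGs and 17.8 and 19.1 in the placodes. No samples of the groups came near each other, and Sdc1 fell by 2.05 on the log2 scale (SE 0.05, adjusted p = 6.71e-07), a 4.32-fold ratio of means. Sdc4 (ENSMUSG00000017009, chr2:164424247-164443887, minus strand), a syndecan of focal adhesions, had 18.3 and 15.6 FPKM in the SMGs and 5.66 and 5.18 in the placodes. It was also lower in both placode samples, with a log2 fold change of -1.48 (SE 0.10, adjusted p = 2.6e-05). Sdc3, the syndecan best known from the nervous system, moved the other way. It had 29.8 and 30.5 FPKM in the SMGs and 44.4 and 42.9 in the placodes (log2 fold change 0.52, SE 0.05, adjusted p = 0.000141).

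Sdc2, known from mesenchymal cells, had 9.40 and 7.70 FPKM in the SMGs and 10.6 and 10.1 in the placodes. Its log2 fold change of 0.25 (95% interval 0.00 to 0.50) was not called in the limma test (adjusted p = 0.0657). The same test called it with FPKM rescaled to an equal sum per sample (adjusted p = 0.027). It was also called with median-ratio scaling (adjusted p = 0.0348) and quantile normalization (adjusted p = 0.0415). Leaving out 1 sample gave log2 fold changes between 0.12 and 0.38. As a share of the summed syndecan FPKM, Sdc1 took 57.9% and 59.9% in the SMGs and 22.7% and 24.7% in the placodes, and Sdc3 took 21.8% and 22.7% and then 56.6% and 55.5%. The ratio of Sdc1 to Sdc3 was 2.65 and 2.64 in the SMGs and 0.401 and 0.445 in the placodes. Sdc3 thus took the first place that Sdc1 held in the SMGs. The syndecan sum was 137 and 134 FPKM in the SMGs and 78.5 and 77.2 in the placodes.

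Over the 10 core proteins, 9 were tested, of which 3 were higher (35.7% of all features) and 5 lower (40.4%) in the placodes. Their absolute log2 fold changes had a median of 1.48, the 22 tested enzymes 0.59 and all features 0.55. Beside the lower Sdc1, 6 of the 8 epithelial markers were lower in the placodes, while Krt8 had 36.1 and 28.3 FPKM in the SMGs and 34.4 and 35.6 in the placodes, and Krt18 had 20.0 and 15.4 and then 20.8 and 24.5. The part of these markers in the difference was not tested.

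**Figure D2:**
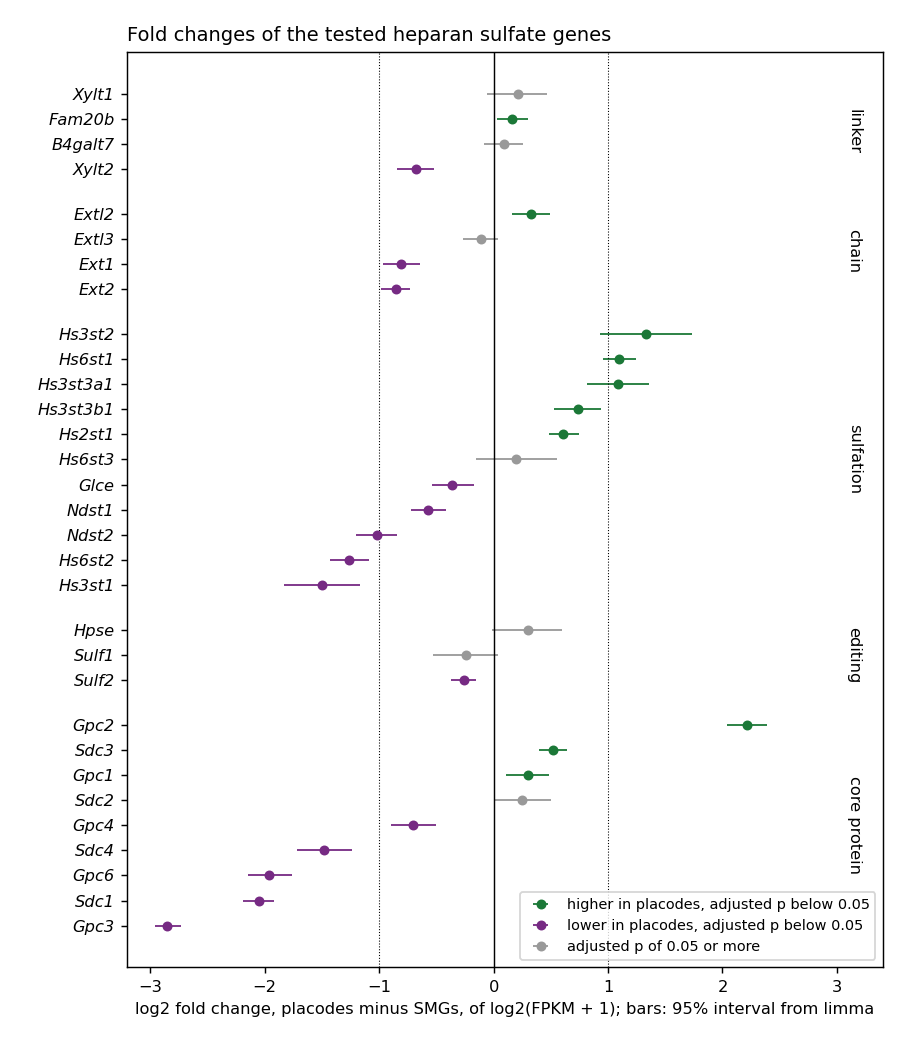
Log2 fold change of log2(FPKM + 1), placodes minus SMGs, for the 31 tested heparan sulfate genes, with bars for the 95% interval from limma, dotted lines at a 2-fold difference and colours for the calls at an adjusted p below 0.05. Gpc2 lies farthest to the right at 2.21 and Gpc3 farthest to the left at -2.85.

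The sequence upstream of Gpc2 and Gpc3, and of Sdc1 and Hs6st1, is shown because these genes lead the contrasts within the glypicans, the syndecans and the 6-O-sulfotransferases. The windows are the 250 bases before the annotated start in RefSeq (GRCm38.p6), written 5′ to 3′ on the strand of the gene, and bases that lie in an annotated exon are left out. They are chr5:138280006-138280187 (minus strand) for Gpc2, chrX:52613975-52614224 (minus strand) for Gpc3, chr12:8771146-8771322 (plus strand) for Sdc1 and chr1:36068150-36068399 (plus strand) for Hs6st1. Capitals mark a GC box (GGGCGG) or a CCAAT box (CCAAT) on either strand.
Gpc2: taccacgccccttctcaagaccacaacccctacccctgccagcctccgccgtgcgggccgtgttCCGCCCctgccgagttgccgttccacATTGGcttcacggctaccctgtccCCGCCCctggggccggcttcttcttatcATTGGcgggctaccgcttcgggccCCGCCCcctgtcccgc
Gpc3: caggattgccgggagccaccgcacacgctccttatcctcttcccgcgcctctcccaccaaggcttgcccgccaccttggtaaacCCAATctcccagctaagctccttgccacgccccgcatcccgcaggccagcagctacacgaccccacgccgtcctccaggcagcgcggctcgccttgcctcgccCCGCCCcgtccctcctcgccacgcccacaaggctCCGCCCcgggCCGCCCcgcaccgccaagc
Sdc1: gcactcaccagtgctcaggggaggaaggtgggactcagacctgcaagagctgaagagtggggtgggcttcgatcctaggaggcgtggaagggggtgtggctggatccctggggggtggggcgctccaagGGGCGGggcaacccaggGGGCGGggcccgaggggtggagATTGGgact
Hs6st1: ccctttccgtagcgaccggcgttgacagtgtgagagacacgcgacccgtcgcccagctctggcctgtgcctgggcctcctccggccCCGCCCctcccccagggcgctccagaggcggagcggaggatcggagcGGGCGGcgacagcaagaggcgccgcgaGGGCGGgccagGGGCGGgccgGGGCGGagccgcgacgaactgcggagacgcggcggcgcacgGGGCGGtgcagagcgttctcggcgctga

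These windows also were searched on both strands for the TATA box (TATAAA) and the retinoic acid receptor half-site (AGGTCA), and none of the 4 held either. The matches of different motifs did not overlap in the windows shown. Over the whole window of 250 bases, Gpc2 and Gpc3 each held 3 GC boxes, Sdc1 held 3, of which 1 falls in the exon bases not shown, and Hs6st1 held 6. Gpc2 held 2 CCAAT boxes, Gpc3 and Sdc1 held 1 each, and Hs6st1 held none. CG dinucleotides numbered 25 for Gpc3, 19 for Gpc2, 37 for Hs6st1 and 10 for Sdc1, against a median of 6 over all 32851 promoters of the table. A window was listed for 26 of the 35 genes, with 30 promoters in all and a median of 17.5 CG dinucleotides. Of these 30, 19 held a GC box, 13 a CCAAT box, 3 a TATA box and 4 the half-site, while the shares of all promoters were 32.7%, 33.8%, 12.4% and 14%. Gpc3, which was lower in the placodes, and Gpc2, which was higher, thus held the same kinds of motif. A match is a description of the letters only.

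The linker is started by the xylosyltransferases Xylt1 and Xylt2. Xylt2, the more abundant, had 16.8 and 17.5 FPKM in the SMGs and 10.5 and 10.2 in the placodes. It fell by 0.68 on the log2 scale (SE 0.06, adjusted p = 0.000133), and the groups were well apart. Xylt1 had 1.48 and 1.35 FPKM in the SMGs and 1.72 and 1.84 in the placodes, and was not called (0.21, 95% interval -0.06 to 0.47). B4galt7, which adds the first galactose, had 11 and 11.6 FPKM in the SMGs and 12.4 and 11.8 in the placodes and was not called either (0.09, 95% interval -0.08 to 0.26). Fam20b, the kinase that phosphorylates the xylose, had 19.3 and 19.6 FPKM in the SMGs and 21.7 and 22.2 in the placodes. Its log2 fold change of 0.16 passed with an adjusted p of 0.0324 and was lost when any 1 sample was left out, with adjusted p between 0.0693 and 0.113, and with the replicate number as a block (adjusted p = 0.0528).

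The chain polymerase is a complex of Ext1 and Ext2, and both were lower in the placodes. Ext1 had 15.9 and 16.6 FPKM in the SMGs and 8.98 and 8.74 in the placodes (log2 fold change -0.81, SE 0.07, adjusted p = 6.99e-05). Ext2 had 54.4 and 51.4 FPKM in the SMGs and 28.6 and 29.0 in the placodes (log2 fold change -0.85, SE 0.05, adjusted p = 1.84e-05). Both genes had a placode mean 0.545 times the SMG mean. The ratio of Ext2 to Ext1 was accordingly alike, at 3.42 and 3.09 in the SMGs and 3.19 and 3.32 in the placodes. Extl3, which adds the first N-acetylglucosamine of a heparan sulfate chain, had 23.9 and 26.1 FPKM in the SMGs and 23.1 and 22.9 in the placodes and was not called (-0.11, 95% interval -0.27 to 0.04). Extl2, which can end a chain at the linker, had 10.8 and 10.9 FPKM in the SMGs and 14.4 and 13.4 in the placodes and rose by 0.33 (SE 0.07, adjusted p = 0.00554). Extl1 was not tested, with 0.454 and 0.527 FPKM in the SMGs and 0.388 and 0.441 in the placodes.

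Sulfation begins with the N-deacetylase/N-sulfotransferases, which prepare the chain for the later enzymes. Ndst1 had 38.1 and 41.0 FPKM in the SMGs and 25.6 and 27.0 in the placodes, and fell by 0.57 on the log2 scale (SE 0.06, adjusted p = 0.000229). Ndst2 (ENSMUSG00000039308, chr14:20723730-20734562, minus strand) had 12.4 and 13.0 FPKM in the SMGs and 5.88 and 5.68 in the placodes. It fell by 1.02 (SE 0.07, adjusted p = 4.11e-05), just past a 2-fold difference. Ndst1 stayed the most abundant of the family in both groups. Ndst3 and Ndst4 were not tested. Ndst3 had 0.253 and 0.437 FPKM in the SMGs and 0.567 and 0.531 in the placodes, and Ndst4 had 0.021 and 0.0575 in the SMGs and 0.796 and 0.631 in the placodes. Both were thus higher in each placode sample, at levels below 1 FPKM.

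Glce, the epimerase that turns glucuronic into iduronic acid, had 17.1 and 18.9 FPKM in the SMGs and 13.3 and 14.3 in the placodes. Its log2 fold change was -0.36 (adjusted p = 0.00543), and the call was lost without placode replicate 1 (adjusted p = 0.0655). Hs2st1, the 2-O-sulfotransferase, which acts mainly on iduronic acid, moved the opposite way. It had 15.3 and 15.4 FPKM in the SMGs and 24.3 and 23.8 in the placodes and rose by 0.61 (SE 0.05, adjusted p = 0.000101).

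The 6-O-sulfotransferases split. Hs6st1 (ENSMUSG00000045216, chr1:36068400-36106446, plus strand) had 28 and 27 FPKM in the SMGs and 62.3 and 57.8 in the placodes. Both placode samples were higher, and Hs6st1 rose by 1.10 on the log2 scale (SE 0.06, adjusted p = 9.51e-06). Hs6st2 (ENSMUSG00000062184, chrX:51387212-51681856, minus strand) had 17.5 and 17.8 FPKM in the SMGs and 6.60 and 7.03 in the placodes. Here both placode samples were lower, with a log2 fold change of -1.26 (SE 0.07, adjusted p = 1.24e-05). The ratio of Hs6st1 to Hs6st2 was 1.60 and 1.51 in the SMGs and 9.44 and 8.22 in the placodes. Hs6st1 held 60.6% and 58.7% of the family's FPKM in the SMGs and 89.0% and 87.4% in the placodes. Hs6st3 had 0.740 and 1.12 FPKM in the SMGs and 1.10 and 1.31 in the placodes, the only tested gene of the set whose groups overlapped, and was not called (0.20, 95% interval -0.15 to 0.55).

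The 3-O-sulfotransferases add the rarest sulfate and split in the same manner. Hs3st1 (ENSMUSG00000051022, chr5:39613935-39755475, minus strand), the enzyme that makes antithrombin-binding sites, had 17.7 and 21 FPKM in the SMGs and 5.38 and 7.04 in the placodes. Its placode replicates were the most unequal of the tested genes on the log2(FPKM + 1) scale, and both placode samples were below both SMG samples (log2 fold change -1.50, SE 0.13, adjusted p = 9.84e-05). Hs3st2 (ENSMUSG00000046321, chr7:121391859-121501770, plus strand), known from the brain, had 0.371 and 0.855 FPKM in the SMGs and 3.09 and 2.93 in the placodes. It rose by 1.33 (SE 0.16, adjusted p = 0.000456), and its SMG replicates were the most unequal on the same scale. Hs3st3a1 (ENSMUSG00000047759, chr11:64435332-64522841, plus strand) had 1.24 and 1.4 FPKM in the SMGs and 3.72 and 4.18 in the placodes and rose by 1.09 (SE 0.11, adjusted p = 0.000173). Hs3st3b1 had 5.70 and 5.19 FPKM in the SMGs and 9.71 and 9.72 in the placodes and rose by 0.74 (SE 0.08, adjusted p = 0.000295). Hs3st3a1 and Hs3st3b1 encode near-identical catalytic domains, so fragments may have been split between them and their separate levels are uncertain.

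Hs3st1 held 70.8% and 73.8% of the FPKM of these 4 enzymes in the SMGs and 24.6% and 29.5% in the placodes. Hs3st3b1 was the leading one in the placodes, at 44.3% and 40.7%, against 22.8% and 18.3% in the SMGs. The sum of the 4 differed little, at 25.0 and 28.4 FPKM in the SMGs and 21.9 and 23.9 in the placodes. Hs3st4, Hs3st5 and Hs3st6 are not in the set, so these shares and sums do not describe all 3-O-sulfotransferases. Of them, Hs3st5 had 0.322 and 0.298 FPKM in the SMGs and 3.90 and 4.17 in the placodes, where it lay above Hs3st2. Over all 13 sulfation genes, 11 were tested, with 5 higher (35.7% of all features), 5 lower (40.4%) and 1 not called, and the summed FPKM of the 13 was 154 and 163 in the SMGs and 162 in each placode sample. With all 13 counted, the summed level of the placodes thus lay within the range of the SMG samples. The 13 include the epimerase Glce, which adds no sulfate, at 17.1 and 18.9 FPKM in the SMGs and 13.3 and 14.3 in the placodes. Glce takes more of the SMG sums, so the sum of the 13 does not give the level of the sulfotransferases alone. Hs6st1 alone held 28 and 27 FPKM of that sum in the SMGs and 62.3 and 57.8 in the placodes, so the sum does not show that the other genes were level.

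**Figure D3:**
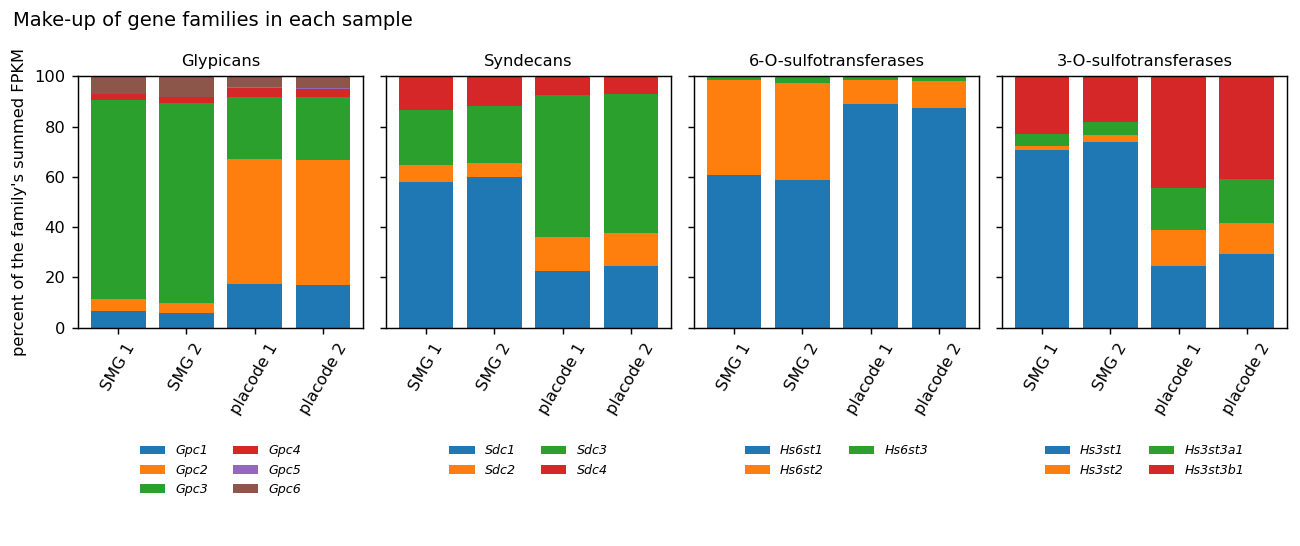
Share of each gene in the summed FPKM of its family (percent, stacked bars, 1 bar per sample) for the glypicans, the syndecans, the 6-O-sulfotransferases and the 4 3-O-sulfotransferases of the set. The bars of a group are nearly the same, and the leading gene differs between SMGs and placodes in each family but the 6-O-sulfotransferases, where Hs6st1 leads in both.

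Among the genes that edit finished chains, differences were small. Sulf2, an endosulfatase and the second most abundant gene of the set in both groups, had 146 and 142 FPKM in the SMGs and 120 and 121 in the placodes, and fell by 0.26 on the log2 scale (SE 0.05, adjusted p = 0.0024). Sulf1, the other endosulfatase, had 13.8 and 11.1 FPKM in the SMGs and 9.60 and 11.1 in the placodes, with an equal value in SMG replicate 2 and placode replicate 2 at this precision, and was not called (-0.24, 95% interval -0.53 to 0.04). Sulf2 made up most of their sum in every sample, between 91.4% and 92.8%. Hpse, the heparanase, had 1.35 and 1.78 FPKM in the SMGs and 2.08 and 2.21 in the placodes and was not called (0.30, 95% interval -0.01 to 0.60, adjusted p = 0.0714).

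Several of the genes are neighbours in the genome. Gpc4 and Gpc3 lie 107.2 kb apart on chrX on the same strand, with no other coding gene between them, and both were lower in the placodes. Hs6st2 lies 371.2 kb from Gpc4 on the same strand and was lower as well, and neither of the 2 coding genes between them was tested. Gpc5 and Gpc6 lie 400.1 kb apart on chr14. Gpc6 was lower in the placodes, whereas the values of Gpc5 were higher there. Hs3st3b1 and Hs3st3a1 lie 513.0 kb apart on chr11 on opposite strands and both rose, while Cox10 between them fell by 0.25 (adjusted p = 0.0294). In the annotation, 11 of the 35 genes share exon bases with another gene, 2 on the same strand (Gpc2 and Glce) and 9 on the opposite strand. Whether strand was used in counting is not given, so the values of these genes may hold fragments of the other gene. The 4 genes with a rise of at least 2-fold (Gpc2, Hs6st1, Hs3st2 and Hs3st3a1) are all among the 11, and none of the 7 with a fall of at least 2-fold is. The 11 also include genes called at less than 2-fold, with Glce and Sulf2 lower and Fam20b, Sdc3 and Gpc1 higher in the placodes. The share of all features with such an overlap was not counted, and the part of overlap in the rises was not tested. The shared part is 8.07% of the exon bases of Hs6st1, 9.05% of Hs3st2 and 32.9% of Hs3st3a1. No FPKM was listed for the overlapping genes of Hs6st1 and Hs3st2. For Hs3st3a1 the overlapping gene is F930015N05Rik, listed at 0.751 and 0.409 FPKM in the SMGs and 1.82 and 1.48 in the placodes.

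Further genes of the heparan sulfate pathway, which are not in the set, were listed by function. Of 12 such genes, 10 were tested, and 8 of these were called (80%, beside 76.2% of all features), 4 higher and 4 lower in the placodes. B3gat3, which adds the glucuronic acid that completes the linker, had 21.8 and 21.9 FPKM in the SMGs and 50.6 and 46.4 in the placodes (log2 fold change 1.11, adjusted p = 1.05e-05). Pxylp1, the phosphatase that removes the phosphate Fam20b adds, had 3.70 and 4.08 in the SMGs and 9.95 and 11.7 in the placodes (1.27, adjusted p = 6.83e-05). Hs3st5, a further 3-O-sulfotransferase, had 0.322 and 0.298 in the SMGs and 3.90 and 4.17 in the placodes (1.94, adjusted p = 1.23e-05), and like Hs3st2 it passed the minimum only through the placodes. These 3 genes were higher in both placode samples.

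Of the secreted core proteins of the basement membrane, Hspg2 and Col18a1 fell and Agrn rose. Hspg2, which encodes perlecan, had 33.9 and 34.7 FPKM in the SMGs and 9.36 and 10.1 in the placodes (log2 fold change -1.72, adjusted p = 2.13e-06). Col18a1, a collagen that carries heparan sulfate, had 53.9 and 51.4 in the SMGs and 21.5 and 22.1 in the placodes (-1.24, adjusted p = 4.05e-06). Agrn, which encodes agrin, was the most abundant of the 12 in both groups and slightly higher in the placodes, with 70.6 and 68.6 FPKM in the SMGs and 78.8 and 83.6 in the placodes (0.22, adjusted p = 0.00854). Tgfbr3, a TGF-beta co-receptor that can carry such chains, had 19.0 and 20.2 in the SMGs and 1.97 and 1.57 in the placodes (-2.89, adjusted p = 1.93e-06). Hs3st4, Hs3st6, Hpse2 and Notum completed the list without a call, the last 2 untested, and B3galt6 fell by 0.52.

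Genes that supply the sugar nucleotides and the sulfate donor PAPS had 60% of the tested genes called, beside 76.2% of all features. All 15 were tested, of which limma called 0 higher (35.7% of all features) and 9 lower (40.4%), with a median log2 fold change of -0.42. At an unadjusted p below 0.05 the number higher was also 0. Papss2, a PAPS synthase, had 3.34 and 2.89 FPKM in the SMGs and 0.241 and 0.233 in the placodes (-1.73, adjusted p = 2.83e-05), and passed the minimum only through the SMGs. Papss1, the other synthase and the most abundant gene of this list, had 55.7 and 56.7 in the SMGs and 52.2 and 45.4 in the placodes (-0.20, adjusted p = 0.0416). The PAPS synthase transcripts were therefore almost all Papss1 in both groups. Gnpnat1, an acetyltransferase on the way to UDP-N-acetylglucosamine, had 3.54 and 4.25 in the SMGs and 1.31 and 1.02 in the placodes (-1.18, adjusted p = 0.000266). Ugdh, which makes UDP-glucuronic acid, fell by 0.98, and the Golgi transporters Slc35b2 and Slc35b3 for PAPS were not called. Lysosomal breakdown genes were all tested, with 2 of 9 higher and 5 lower (77.8% called, beside 76.2% of all features). Gusb, the beta-glucuronidase, had 17.2 and 16.9 in the SMGs and 4.2 and 3.57 in the placodes (-1.89, adjusted p = 6.68e-06), and Sumf1, which activates sulfatases including the Sulf enzymes, had 12.9 and 12.4 in the SMGs and 3.23 and 3.18 in the placodes (-1.70, adjusted p = 6.32e-06).

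Chondroitin and dermatan sulfate share the linker with heparan sulfate, and the enzyme that adds the next sugar decides between them. Of 16 genes of that branch, 14 were tested and all 14 were called (76.2% of all features were), 4 higher and 10 lower, with a median log2 fold change of -0.81. Csgalnact1, which starts a chondroitin chain, had 9.74 and 9.27 FPKM in the SMGs and 1.11 and 0.717 in the placodes (-2.46, adjusted p = 9.42e-06), and passed the minimum only through the SMGs. Csgalnact2 fell by 0.86. The ratio of Extl3 to the sum of both starters was 1.27 and 1.44 in the SMGs and 4.30 and 4.15 in the placodes, so both placode samples had the higher ratio. The dermatan sulfate epimerases Dse (27.7 and 28.4 against 4.08 and 3.99 FPKM in the placodes, -2.53, adjusted p = 6.66e-07) and Dsel (12.4 and 13.5 against 2.28 and 1.97, -2.16, adjusted p = 5.27e-06) were lower in the placodes. The dermatan 4-O-sulfotransferase Chst14 was lower too (28 and 25.2 against 4.27 and 4.64, -2.34, adjusted p = 1.95e-06). Chsy1, a chondroitin synthase and the most abundant gene of the list in the SMGs, had 46.1 and 44.3 FPKM there and 17.8 and 18.6 in the placodes (-1.27, adjusted p = 4.16e-06). Chpf, its partner in chain extension, was the most abundant in the placodes at 23.7 and 25.2 FPKM, against 32.4 and 32.8 in the SMGs. Chst15, which sulfates chondroitin further, was at least 2-fold higher, with 7.23 and 7.26 FPKM in the SMGs and 16.1 in each placode sample (1.05, adjusted p = 2.08e-05).

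**Figure D4:**
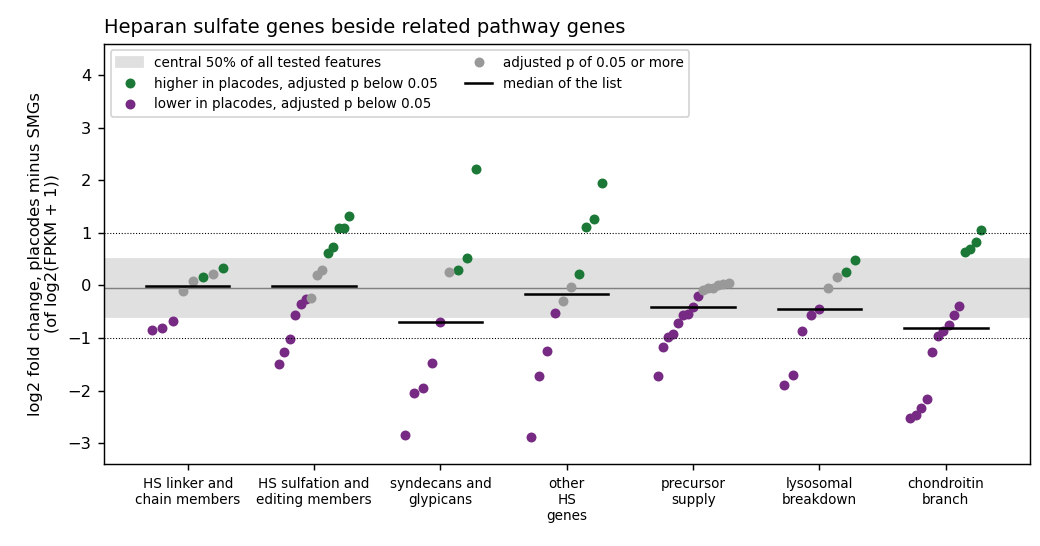
Log2 fold change of log2(FPKM + 1), placodes minus SMGs, of every tested gene of the heparan sulfate set (3 columns on the left) and of 4 related lists, with 1 point per gene, a black line at the median of each list and a grey band over the central 50% of all tested features. The chondroitin branch has the lowest median at -0.81, and precursor supply has no gene called higher.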

How the data were processed

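Total RNA was sequenced as paired-end reads, in duplicate for SG placodes at day 10 and for SMGs at E12.5. The authors mapped the reads with HISAT2 and deposited FPKM per gene and sample. The submitters' processing notes list GRCm38 and GRCh38 without a role, and the version of HISAT2, the annotation, the strand setting and the software for FPKM are not given in the sources used here. FPKM showed no whole-read steps: among low features, the most common ratio between replicates was shared by 4 of 582 in the placodes and 6 of 596 in the SMGs.

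Samples were grouped by their labels. log2(FPKM + 1) was tested two-sided in R 4.3.3 with group as the only term (limma 3.58.1, lmFit and eBayes with trend) over the 13193 of 24771 features with a mean FPKM of at least 1, with Benjamini-Hochberg adjustment over all of them. A 2-fold difference is 1 or more on this scale, in either direction. Family shares and ratios are descriptions without a test. The heparan sulfate genes and the related lists were chosen by function with earlier results of these data known. Genes at least 2-fold different of the set and the related lists are given with each sample's value, and of the related lists also the most abundant gene of each group. A gene that this rule would name is not reported here. Bpnt2 is listed under its older symbol Impad1. Positions are from GENCODE M21 on GRCm38, in which all 35 identifiers had the same symbol, and promoters are from RefSeq (GRCm38.p6). The script was tested on simulated data. Alternatives changed the pseudocount, scaling, minimum, block, variance trend and samples, 1 at a time. Figures were drawn with Python 3.11.15 and matplotlib 3.10.9. Read-level steps were not repeated, and protein sequences were not analysed here.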

Additional observations from a re-analysis of the deposited data

How the results depend on the processing

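Over all alternatives to the main analysis, 411 of 429 values of the 31 tested heparan sulfate genes kept their direction and their side of the threshold, and 0 reversed. Another 9 values lost the call (Fam20b, Glce and Gpc1), and 9 gained it (Xylt1, Hpse and Sdc2). The number called higher ranged from 8 to 12 around 10, and the number called lower from 13 to 14. The number at least 2-fold higher went from 4 to 2 at a minimum mean FPKM of 5, where 26 of the genes were tested, and to 1 (Gpc2) with limma's treat against a 2-fold difference. The number at least 2-fold lower ranged from 6 to 7. The order of fold changes depended on the pseudocount. At 0.01 in place of 1, Hs3st2 rose by 2.39, more than Gpc2 at 2.25. With precursor supply genes at the minimum of 5, 5 of 10 tested were called in place of 9 of 15. Leaving out each sample in turn gave 8 to 10 called higher and 13 to 14 called lower. These fits assume that a lone sample varies like the other group. The replicate numbers share a number only, since no source pairs the samples and the replicate differences of the groups had a correlation of -0.0348 across features. With the replicate number as a block, 10 were called higher and 14 lower as before, with Fam20b lost (adjusted p = 0.0528) and Sdc2 gained (adjusted p = 0.0411), and the block changed no other call of these genes. Scaling moved the median log2 fold change of all features to between -0.054 and 0.006. The 2 samples per group and the unknown depth limit what can be said of genes near 1 FPKM, such as Xylt1, Hs6st3 and Hpse.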

Other observations

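Other proteoglycan core proteins, which carry mainly chondroitin or dermatan sulfate, were listed after the values of the heparan sulfate genes had been seen. Of 10 such genes, 9 were tested and all 9 were called, 3 higher and 6 lower in the placodes, where 76.2% of all features were called, 35.7% higher and 40.4% lower. Ncan, which encodes neurocan, had 0.563 and 0.586 FPKM in the SMGs and 33 and 32.7 in the placodes (log2 fold change 4.43, adjusted p = 2.22e-07). Cspg5 had 1.02 and 1.38 in the SMGs and 17.3 and 16.3 in the placodes (3.02, adjusted p = 2.34e-06), and Ptprz1 had 2.05 and 1.93 and then 16.8 and 20.9 (2.73, adjusted p = 4.3e-06). Bcan, which was not tested, had 0.0392 and 0.0312 in the SMGs and 1.47 and 1.90 in the placodes. Dcn, which encodes decorin and is also among the mesenchymal markers, had 210 and 207 FPKM in the SMGs and 12.9 and 14.7 in the placodes (-3.83, adjusted p = 2.22e-07). Bgn, which encodes biglycan, had 35 in each SMG sample and 4.66 and 4.37 in the placodes (-2.71), and Acan, the aggrecan of cartilage, had 4.06 and 4.23 and then 0.00665 and 0.0164 (-2.35). Cspg4, known from pericytes and glial precursors, had 3.03 and 3.13 in the SMGs and 0.138 and 0.0433 in the placodes and fell by 1.91. Srgn, the core protein of blood cell granules, had 3.95 and 1.90 and then 0.212 and 0.163 and fell by 1.67. Vcan, which encodes versican, fell by 0.64. Ncan passed the minimum only through the placodes, and Acan, Cspg4 and Srgn only through the SMGs. The minimum thus favoured a call for these genes, and the count of calls in this list is a description only. All 8 neural markers were higher and all 9 mesenchymal markers lower in the same samples, and their part in these differences was not tested.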
